A study of Mus musculus with 2 samples.

Results

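The genes described here are 10 genes of the oligodendrocyte precursor cell and of the regulators that take it towards a myelinating oligodendrocyte. Pdgfra, Cspg4, Gpr17, Vcan and C1ql1 encode surface, matrix or secreted proteins, and Neu4 encodes a sialidase. Olig1, Olig2, Sox10 and Myrf encode transcription factors. The 6 that are not transcription factor genes, Neu4 included, are called the surface and matrix genes below for brevity. All were taken by gene name, 10 of 55536 annotated genes. The study sequenced total RNA from mouse hippocampus in 2 libraries, with no second condition. Each library was quantified in more than one way.

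Both libraries form 1 group. The tissue is labelled a layer of hippocampus and came from female B6CASTF1/J mice, first-generation hybrids between C57BL/6J and CAST/EiJ, at 36 days of age. No genotype change or treatment is given. Each library started from 300 ng of RNA with an ERCC spike-in mix, a set of external RNAs added to every sample. The labels number them as biological replicates 1 and 2 and give each its own biosample, but 1 donor identifier in common. Separate animals are therefore not stated outright, and the spread given below (SD, n = 2) is that between these samples, which may be technical.

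Oligodendrocyte precursor cells are spread through grey and white matter, divide slowly in the young adult brain and respond to platelet-derived growth factor through the receptor encoded by Pdgfra. Olig2 and Sox10 are expressed throughout the lineage. Gpr17 marks late precursors and cells that have just committed to differentiate, and Myrf switches on myelin genes once the cell has left the cell cycle. In bulk tissue such as this, fewer cells of a type and less RNA per cell cannot be told apart.

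The gene tables held 32443497 counts in replicate 1 and 30125183 in replicate 2, of which spike-in RNAs took 0.445% and 0.380%. The 10 genes took 11733 and 10418 counts, or 0.0363% and 0.0347% of the counts of annotated genes. Marker levels of some other tissues differed between the libraries. The 10 choroid plexus markers summed to 26.9 TPM in replicate 1 and 1304 in replicate 2 (TPM, transcript abundance per length and library, is the unit in which genes are compared here), and the 10 fibroblast and meningeal markers to 63.6 and 120.7 TPM. Single genes held much of these sums, Ttr with 20.8 and 1237 TPM of the first and Igf2 with 24.7 and 62.5 TPM of the second. Astrocyte markers summed to 1535 and 1514 TPM and microglia markers to 175.3 and 174.1 TPM. Pdgfra and Vcan are also expressed by fibroblasts of the meninges, and Cspg4 by the mural cells of vessels.

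Each of the 10 genes reached 1 TPM in either library and was counted as detected, beside 26.3% of all annotated genes. Every count lay within 0.005 of a whole number in both libraries, so no reads had been divided between one of these genes and another. Mean levels ran from 4.58 TPM for Neu4 to 49.9 TPM for Olig1, with a median of 10.2 TPM, against a median of 14.7 TPM over the 12679 detected protein-coding genes. Other genes listed for precursor cells were detected too. Of 19 that could be matched, 18 were detected, led by Cspg5 at 112.7 TPM, Tnr at 59.6 TPM and Ptprz1 at 53.1 TPM. In bulk tissue such levels cannot be assigned to a cell type, which holds for every list used here. Schwann and olfactory ensheathing cell markers, which share Sox10 with this lineage, were mostly absent: 2 of 8 were detected, Frzb at 13.4 TPM among them, and Pmp2 and Npvf had 0 counts in both libraries.

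**Figure D1:**
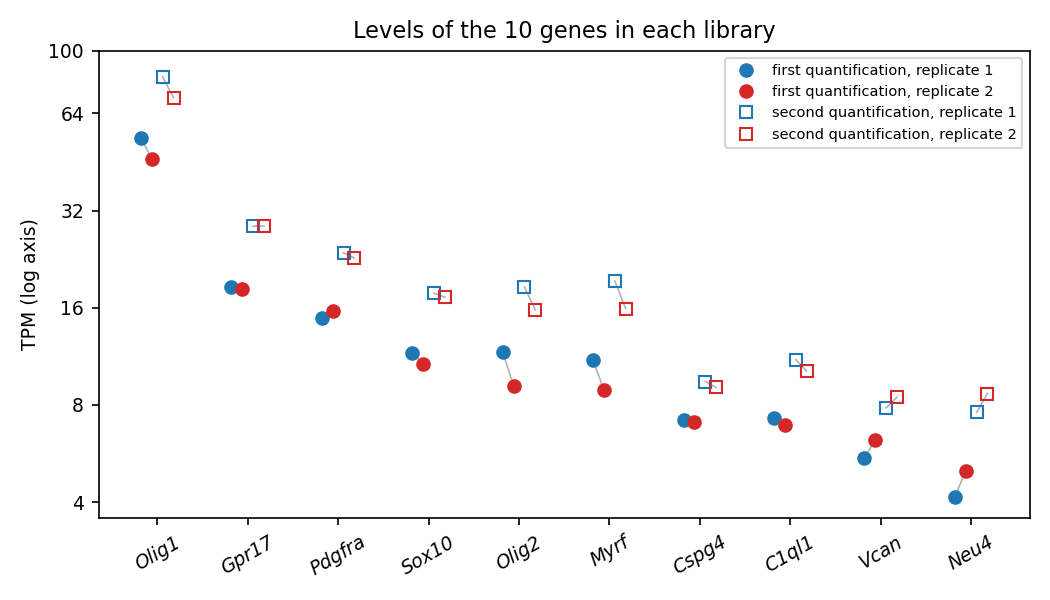
Level of each of the 10 genes in TPM on a log axis. Filled circles are the deposited gene tables, open squares the second quantification summed per gene, blue is replicate 1, red is replicate 2 and grey lines join the values of 1 quantification. Olig1 stands highest at 53.7 and 46.1 TPM, and the second quantification lies above the first for every gene.

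Pdgfra encodes the alpha receptor for platelet-derived growth factor, the mitogen of precursor cells. It lies at chr5:75152292-75198215 on the plus strand (mm10). It had 1875 counts and 14.8 TPM in replicate 1, and 1852 counts and 15.6 TPM in replicate 2, a mean of 15.2 ± 0.573 TPM. That put it at percentile 51.1 of detected protein-coding genes, near their middle. The log2 ratio of replicate 2 over replicate 1 was 0.06, with a 95% counting interval of -0.04 to 0.15 that includes 0, and 0.32 under spike-in scaling. An antisense gene and an unclassified one on the opposite strand share 456 and 166 of its exonic bases, and both had 0 counts.

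The ligand genes differed in level. Pdgfa, whose product is the main ligand of this receptor, had 16.3 and 19.0 TPM, and Pdgfb 10.9 and 11.4 TPM. Pdgfc and Pdgfd were low, at 1.84 and 2.31 TPM and at 1.45 and 1.38 TPM. Pdgfrb, the beta receptor of mural cells, had 4.85 and 5.11 TPM, and Pdgfrl lay under 1 TPM in both libraries. Ratios between the libraries were compared where counts averaged at least 100, which 4 of these genes reached. All 4 had a higher value in replicate 2, while 55.5% of all genes compared were lower there. Their median log2 ratio was 0.21, and 0.47 under spike-in scaling. Pdgfc (0.36) alone went past a log2 ratio of 0.32, a ratio of 5 to 4 that serves here as a rule of size in place of a test and is called the size mark below. It did so on 134 and 163 counts, for which no counting interval was computed. Of all genes compared, 4.43% were higher past the mark.

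Gpr17 encodes a G protein-coupled receptor of late precursors that is silenced in myelinating cells. It lies at chr18:31942997-31949636 on the minus strand. It had 2218 and 2091 counts and 18.5 and 18.3 TPM, a mean of 18.4 ± 0.134 TPM, the highest of the 6 surface and matrix genes. Its log2 ratio was -0.01 (counting interval -0.10 to 0.08), 0.02 when scaled by total counts and 0.25 under spike-in scaling, so no direction can be given. It shares 188 exonic bases with Lims2 on the opposite strand, itself a gene of this lineage, which had 151 and 143 counts. Whether counting used the strand is not given in the sources used here.

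Among genes of the committed and newly formed stage, where Gpr17 is also found, 16 of 16 were detected, with median levels of 9.66 and 9.63 TPM. Nfasc (66.3 TPM), Sirt2 (59.99 TPM) and Fyn (55.5 TPM) were the highest, and which cells they came from was not tested. Of 8 proliferation genes 3 were detected, Pcna at 20.5 TPM, Hmgb2 at 1.97 TPM and Top2a at 1.45 TPM.

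Cspg4 encodes NG2, the transmembrane proteoglycan by which precursor cells are commonly stained. It lies at chr9:56865033-56899870 on the plus strand. It had 988 and 883 counts and 7.21 and 7.06 TPM, a mean of 7.14 ± 0.106 TPM. The log2 ratio was -0.09 (-0.22 to 0.04), and 0.17 under spike-in scaling. NG2 is also carried by mural cells. Of 10 mural markers 9 were detected, led by Vtn (23.1 TPM), Rgs5 (20.3 TPM) and Acta2 (6.28 TPM). Their median log2 ratio was 0.18, and their part in the Cspg4 level was not tested.

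The protein-coding transcript of Cspg4, Cspg4-201, took 46.6% of the gene's TPM in replicate 1 and 39.8% in replicate 2. The other 3 annotated transcripts retain an intron, and together they took 53.4% and 60.2%. Over 7392 detected protein-coding genes with a retained-intron transcript, the median share of such transcripts was 10.98% and 12.1%. In the second quantification their share of Cspg4 was smaller, 29.3% and 31.4%, again above the medians of 11.5% and 12.8%. The share therefore moved more with the quantification than between the libraries. Total RNA can hold unspliced precursors, whose part in these shares was not tested.

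Vcan encodes versican, a large proteoglycan of the extracellular matrix that precursor cells secrete. It lies at chr13:89655312-89742509 on the minus strand. It had 883 and 859 counts and 5.49 and 6.24 TPM, a mean of 5.87 ± 0.530 TPM. Its log2 ratio was 0.03 (-0.10 to 0.17), and 0.30 under spike-in scaling. The deposited TPM gave a ratio of 0.18, on the same side.

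Versican is known in 4 forms that differ by 2 large exons, which carry the attachment sites for chondroitin sulfate chains. The alpha exon, the seventh of the longest transcript, spans 2880 bases at chr13:89702918-89705797, and the beta exon, the eighth, spans 5217 bases at chr13:89688285-89693501. V0 (Vcan-203) has both, V1 (Vcan-206) has beta, V2 (Vcan-202) has alpha and V3 (Vcan-201) has neither. The splice junctions below tell the forms apart by their use of these 2 exons. Each was read from the GENCODE M21 transcript sequences (mm10, the C57BL/6J reference) as 20 bases on either side, 5′ to 3′ on the coding strand, with the downstream exon in capitals, and each occurs in 1 annotated Vcan transcript.
V0, alpha to beta: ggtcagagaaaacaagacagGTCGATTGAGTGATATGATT
V1, upstream exon to beta: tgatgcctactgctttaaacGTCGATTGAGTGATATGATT
V2, alpha to downstream exon: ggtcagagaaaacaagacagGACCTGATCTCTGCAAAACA
V3, upstream exon to downstream exon: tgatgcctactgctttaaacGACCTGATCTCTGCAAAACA
V0 and V2 share the left side of the junction and V0 and V1 the right side, so a read within 1 side alone does not assign the form. The annotated transcripts of the 4 forms also differ in the length of their first and last exons, which a quantification can use too. The part of those ends in the shares below was not tested.

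In the deposited transcript values the alpha-containing forms made up most of versican. V2 had 2.42 TPM in replicate 1 and 2.20 TPM in replicate 2, or 54.0% and 43.1% of the summed TPM of the 4 forms. V0 had 1.76 and 1.79 TPM, or 39.3% and 35.1%. V1, the form with the beta exon alone, was listed at 0 in replicate 1 and at 0.04 TPM in replicate 2. The authors' deposited bounds put V1 at no more than 0.0889 and 0.179 TPM, below the lower bounds of 1.90 and 1.71 TPM for V2 and of 1.502 and 1.496 TPM for V0.

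V3 was the form on which the libraries differed most, with 0.30 TPM in replicate 1 and 1.07 TPM in replicate 2. The authors' bounds on V3 overlapped, reaching 0.744 TPM in replicate 1 and from 0.10 to 1.57 TPM in replicate 2. The second quantification gave the same order of V2, V0 and V3 in both libraries, with V2 at 57.0% and 45.5%, V0 at 43.0% and 40.9%, and V3 at 0 and 12.5%. Since V0 is the longest transcript it held the most counts, 511.6 and 493.7, against 318.8 and 275.8 for V2.

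**Figure D2:**
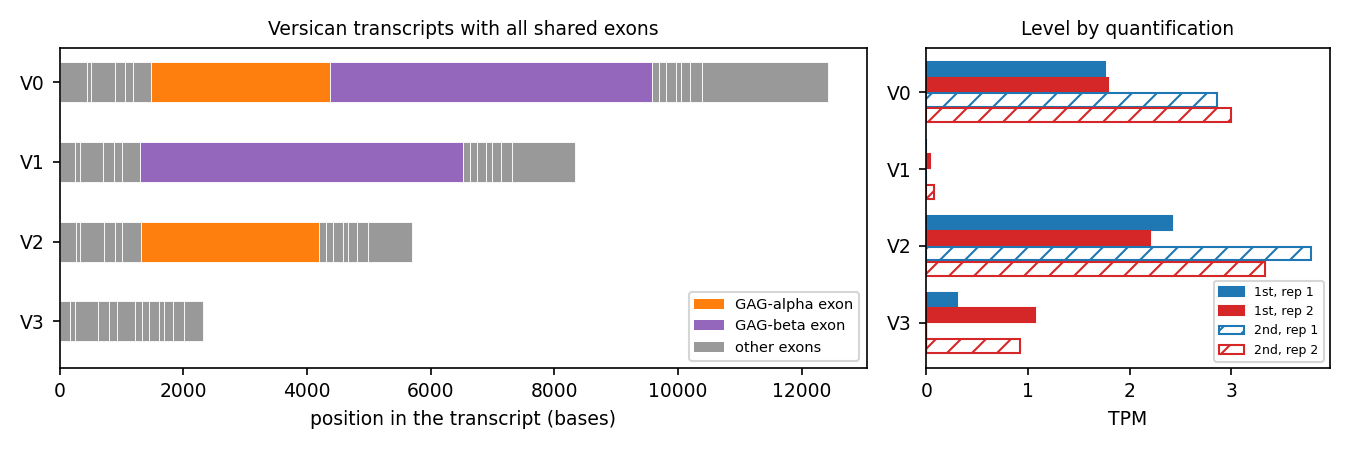
Left, exons of the 4 versican forms along each transcript in bases, with the alpha exon in orange, the beta exon in purple and the others in grey. Right, their TPM as bars, filled for the first and hatched for the second quantification, blue for replicate 1 and red for replicate 2. V2 and V0 lead in all 4 sets of values, and V1 does not pass 0.0740 TPM.

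Other matrix genes that versican works with ranged from far above it to below it. Of the relatives of versican, Bcan had 118.3 and 119.0 TPM, Ncan 66.8 and 65.5 TPM, and Acan, a gene of perineuronal nets, 1.27 and 1.52 TPM. Tnr, whose product tenascin-R binds these proteoglycans, had 60.2 and 59.0 TPM. The link protein genes Hapln1, Hapln4 and Hapln2 had means of 17.4, 33.4 and 6.36 TPM. Hapln4 was lower in replicate 2 and past the size mark (log2 ratio -0.33, -0.06 under spike-in scaling). Among proteases that cut versican, Adamts1 had 11.4 TPM, Adamts4 6.05 TPM and Adamts9 3.41 TPM, and Adamts5 lay under 1 TPM.

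Neu4 encodes a sialidase, an enzyme that removes sialic acid from glycoproteins and glycolipids. It lies at chr1:94020451-94028334 on the plus strand. It had 299 and 314 counts and 4.15 and 5.01 TPM, a mean of 4.58 ± 0.608 TPM, the lowest of the 10 and at percentile 19.2 of detected protein-coding genes. Its log2 ratio of 0.14 had a counting interval of -0.09 to 0.38 that includes 0, and it was 0.41 under spike-in scaling.

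Of the other sialidase genes, the lysosomal Neu1 was higher than Neu4, at 16.5 and 15.7 TPM. Neu3 had 1.09 and 1.06 TPM, and Neu2 had 4 and 6 counts. Neu4 has 2 annotated transcripts. Neu4-202 took 48.4% and 57.9% of the gene's TPM and 60.7% and 64.5% in the second quantification. The longer Neu4-201, at 4511 against 1719 bases, took most of the counts, 222.5 of 299 and 208.9 of 314.

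C1ql1 encodes a secreted protein with a C1q domain that binds the adhesion receptor Adgrb3. It lies at chr11:102939264-102946688 on the minus strand. It had 235 and 214 counts, the fewest of the 10 genes, but on a short RNA of 1473 bases these gave 7.27 and 6.95 TPM, a mean of 7.11 ± 0.226 TPM. Its log2 ratio was -0.06 (-0.34 to 0.21), and 0.20 under spike-in scaling. Its relatives C1ql3 (65.3 and 69.8 TPM) and C1ql2 (35.5 and 39.5 TPM) were higher, and C1ql4 had 4 counts in each library. Adgrb3 had 42.5 and 42.1 TPM.

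Olig1 and Olig2 encode basic helix-loop-helix transcription factors, and Olig2 is needed to set up the lineage. The genes are neighbours on the plus strand of chromosome 16, with Olig2 at chr16:91225457-91228677 and Olig1 at chr16:91269772-91271933, starting 41094 bases beyond the end of Olig2. Their coding sequences are most alike in the stretch that encodes the DNA-binding and dimerization domain. The closest 100 bases, read from the same reference transcripts, are given because shared sequence could mix their counts. Capitals mark the 20 bases that differ. The stretches are coding bases 265 to 364 of Olig1 (chr16:91270141-91270240) and 307 to 406 of Olig2 (chr16:91226706-91226805), counted from 1 at the start codon.
Olig1: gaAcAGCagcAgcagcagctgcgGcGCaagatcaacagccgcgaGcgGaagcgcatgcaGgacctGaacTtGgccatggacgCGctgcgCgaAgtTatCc
Olig2: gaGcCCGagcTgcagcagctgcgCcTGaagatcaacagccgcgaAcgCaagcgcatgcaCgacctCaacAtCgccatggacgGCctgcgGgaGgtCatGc
Even here the longest run without a difference was 17 bases. The counts of both genes were whole, as above.

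Olig1 was the most abundant of the 10 genes and stood several-fold above Olig2. It had 2608 and 2133 counts and 53.7 and 46.1 TPM, a mean of 49.9 ± 5.37 TPM, at percentile 85.1 of detected protein-coding genes. Olig2 had 666 and 500 counts and 11.6 and 9.18 TPM, a mean of 10.4 ± 1.74 TPM. The ratio of Olig1 to Olig2 in TPM was 4.62 in replicate 1 and 5.03 in replicate 2, and 4.47 and 4.54 in the second quantification. Olig3, the third gene of the family, had 0 counts in both libraries.

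Both genes were lower in replicate 2. For Olig1 the log2 ratio was -0.22 (-0.30 to -0.13), and 0.05 under spike-in scaling, where its direction turned. For Olig2 it was -0.34 (-0.51 to -0.17), a 1.27-fold lower value, and -0.08 under spike-in scaling.

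Sox10 encodes an HMG-box factor that acts in all stages of the lineage and works with Olig2 and Myrf on myelin genes. It lies at chr15:79154908-79165240 on the minus strand. It had 655 and 607 counts and 11.6 and 10.8 TPM, a mean of 11.2 ± 0.566 TPM. The log2 ratio was -0.04 (-0.20 to 0.13), and 0.23 under spike-in scaling. Sox8 and Sox9, its closest relatives, had 22.6 and 10.9 TPM. The closest 100 coding bases of Sox10 and Sox9 held 95 identical bases, and those of Sox10 and Sox8 held 88. Over the whole coding sequences the longest identical run was 44 bases with Sox9 and 26 with Sox8.

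The transcripts of Sox10 could not be settled. In the first quantification Sox10-201 took 50.7% of the gene's TPM in replicate 1 and 94.5% in replicate 2. Sox10-203, which has the same coding length of 1398 bases and another 5′ exon arrangement, took 36.6% and 0. In the second quantification Sox10-203 led instead, with 96.3% and 64.9%. The authors' upper bound for Sox10-203 in replicate 2 was 3.79 TPM although it was listed at 0.

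Myrf encodes a membrane-bound factor that cuts itself free and enters the nucleus to turn on myelin genes, so of the 10 it belongs to the latest stage. It lies at chr19:10208272-10240748 on the minus strand. It had 1306 and 965 counts and 11.01 and 8.88 TPM, a mean of 9.95 ± 1.51 TPM. The log2 ratio was -0.36 (-0.48 to -0.24), a 1.29-fold lower value in replicate 2 and the lowest ratio of the 10, and it was -0.10 under spike-in scaling. Tmem98, whose product binds Myrf and blocks its cleavage, had 3.19 and 4.01 TPM, 1.26-fold higher in replicate 2 at 115 and 138 counts. Its log2 ratio was 0.34, and 0.60 under spike-in scaling. No counting interval was computed for these low counts, and a link between the ratios of Tmem98 and Myrf was not tested. The relative Myrfl had 8 and 10 counts.

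Other transcription factors listed for the lineage were mostly detected, 22 of 24, with Zeb2 (152.0 TPM), Id2 (38.95 TPM) and Sox8 (22.6 TPM) highest. Their cells of origin were not tested. Of 21 compared between the libraries 10 were lower and 11 higher in replicate 2, and their median was 0.00. The 2 past the size mark were both lower. They were Nkx6-2 (3.95 and 2.96 TPM) and Zfp488 (2.18 and 1.74 TPM), which were named after their values were seen and which, as background, act late in the lineage. Nkx6-2 had 159 and 120 counts and a log2 ratio of -0.3307. Zfp488, at -0.3224, barely passed the mark of 0.3219. Under spike-in scaling they had -0.07 and -0.06. Whether late factors differ from the others was not tested.

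By level the genes fell into the order Olig1, Gpr17, Pdgfra, Sox10, Olig2, Myrf, Cspg4, C1ql1, Vcan and Neu4. The values of Sox10 and Olig2, of Olig2 and Myrf, and of Cspg4 and C1ql1 overlapped across the libraries. The order of Sox10 and Olig2 and that of Cspg4 and C1ql1 turned between the libraries. Olig2 stood above Myrf within each library, but below it within each in the second quantification. Every other neighbour pair was separate in both libraries. The second quantification kept Olig1, Gpr17 and Pdgfra as the 3 highest, at 77.3, 28.6 and 23.2 TPM. There Myrf (17.6 TPM), Sox10 (17.5 TPM) and Olig2 (17.2 TPM) overlapped, C1ql1 (10.6 TPM) stood above Cspg4 (9.26 TPM), and Vcan and Neu4 overlapped at 8.15 and 8.13 TPM.

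TPM was higher in the second quantification for all 10 genes, from 1.30-fold for Cspg4 to 1.78-fold for Neu4. That was also so of genes in general: the median over detected protein-coding genes was 1.71-fold, with 1.47 and 2.25 at the 10th and 90th percentiles. Counts differed less, from 0.891-fold for C1ql1 to 1.14-fold for Myrf. Levels are therefore compared here only within 1 quantification.

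Of the 6 genes with several annotated transcripts, 5 had the same leading transcript, the one with the highest mean TPM, in both quantifications. The share over all genes was 75.7% at 10 TPM or more and 75.0% at 1 TPM or more, so a count of 5 of 6 is near the background. The exception was Sox10. Pdgfra-201 led Pdgfra with 69.7% and 62.6%, and with 59.1% and 50.3% in the second quantification. Pdgfra-207, annotated as non-stop decay rather than protein-coding, took 13.55% and 13.88%, and 12.85% and 11.56% in the second. Pdgfra-202, which starts at another first exon and has the same coding length of 3267 bases as Pdgfra-201, took 7.96% and 13.5%, and 14.6% and 31.5% in the second. Myrf-201 led Myrf with 72.4% and 67.4%, followed by Myrf-202, with a coding length of 2811 against 3414 bases, at 16.7% and 20.2%.

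**Figure D3:**
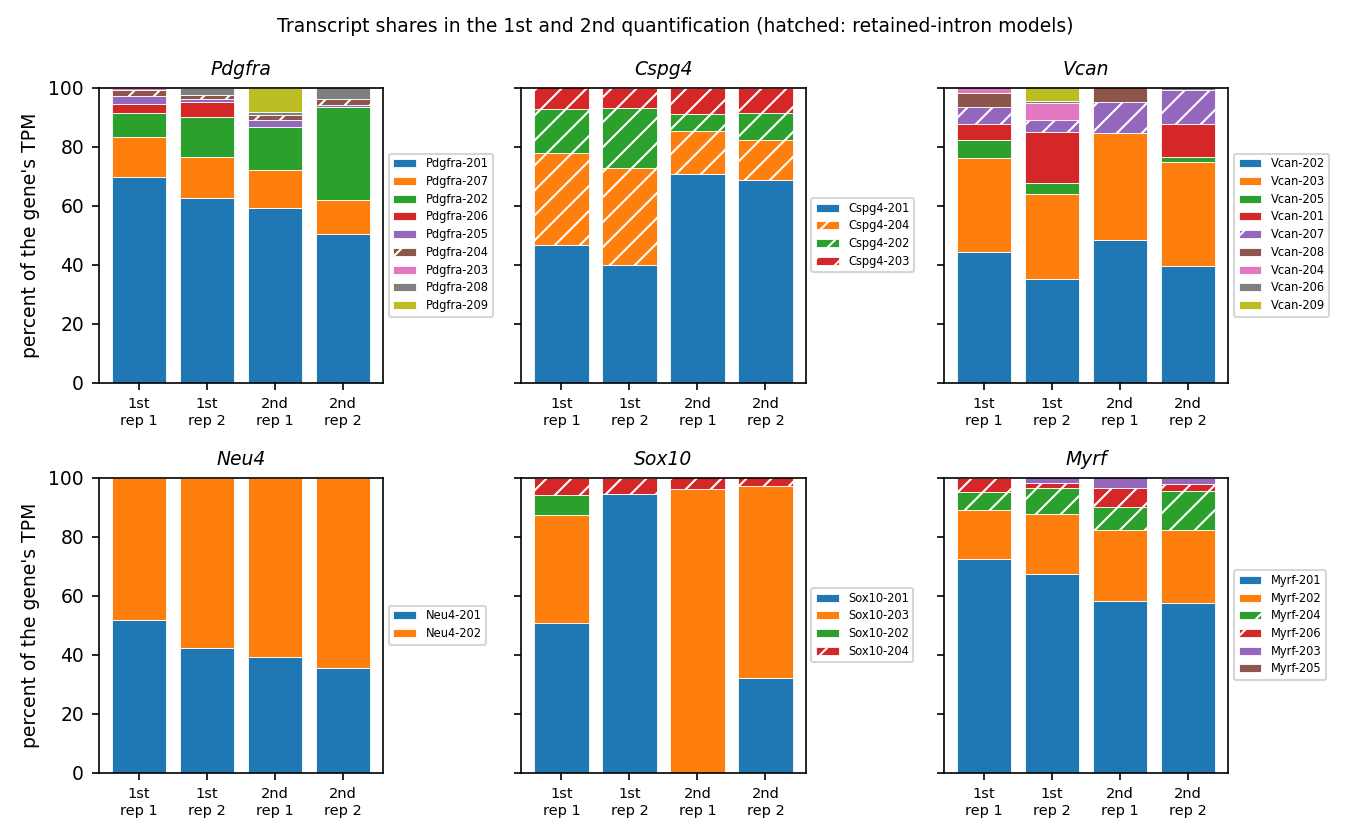
Share of each gene's TPM taken by its annotated transcripts, in percent, as stacked bars for the 6 genes with more than 1 transcript. The bars are replicates 1 and 2 in the first and in the second quantification, and hatching marks retained-intron models. Cspg4 has the largest hatched part, and the lead passes from Sox10-201 to Sox10-203 between the quantifications.

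Olig1, Olig2 and Myrf had the lowest log2 ratios of the 10. With Sox10 (-0.04), which lay inside the range of the surface and matrix genes, the 4 transcription factor genes had a median of -0.28, and of -0.02 under spike-in scaling, where Olig1 and Sox10 turned. The 21 other lineage transcription factors compared had a median of 0.00. The 6 surface and matrix genes were 3 lower and 3 higher, with a median of 0.01 and a range of -0.09 to 0.14, and all 6 were higher under spike-in scaling. A difference between the kinds of gene was not tested. In all 7 of 10 were lower, beside 55.5% of the 12651 genes compared. The median log2 ratio was -0.05 over the 10 and -0.02 over the 12651.

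The size mark was passed by 2 of the 10, Olig2 and Myrf, beside 6.24% of all genes compared. Olig2 no longer passed it under total counts (-0.31) or in the second quantification (-0.27), nor Myrf in the deposited TPM (-0.31). Both passed it as lower in replicate 2, as did 1.8% of all genes compared. Another 4.43% passed it as higher, with none of the 10 among them. None of the 10 passed 2-fold, beside 0.466% of all genes compared. The counting interval lay below 0 for Olig1, Olig2 and Myrf and crossed 0 for the other 7. The common biological coefficient of variation over genes was 0.0900, which is a standard deviation of 0.18 for a log2 ratio between libraries. The ratios of Olig2 and Myrf were within 2 such standard deviations. That value came from these same 2 libraries, so it is no independent measure of the spread between them. By size, whatever the direction, the 2 ratios lay at percentiles 94.55 and 95.38 of the genes compared.

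Spike-in scaling moved all ratios up by 0.26. Only Olig2 and Myrf then stayed below 0, Neu4 (0.41) was the one gene past the size mark, and the median over all genes compared was 0.25. The direction of Olig1, Sox10, Cspg4, C1ql1 and Gpr17 between the libraries thus rests on the scaling, while their places relative to other genes do not.

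**Figure D4:**
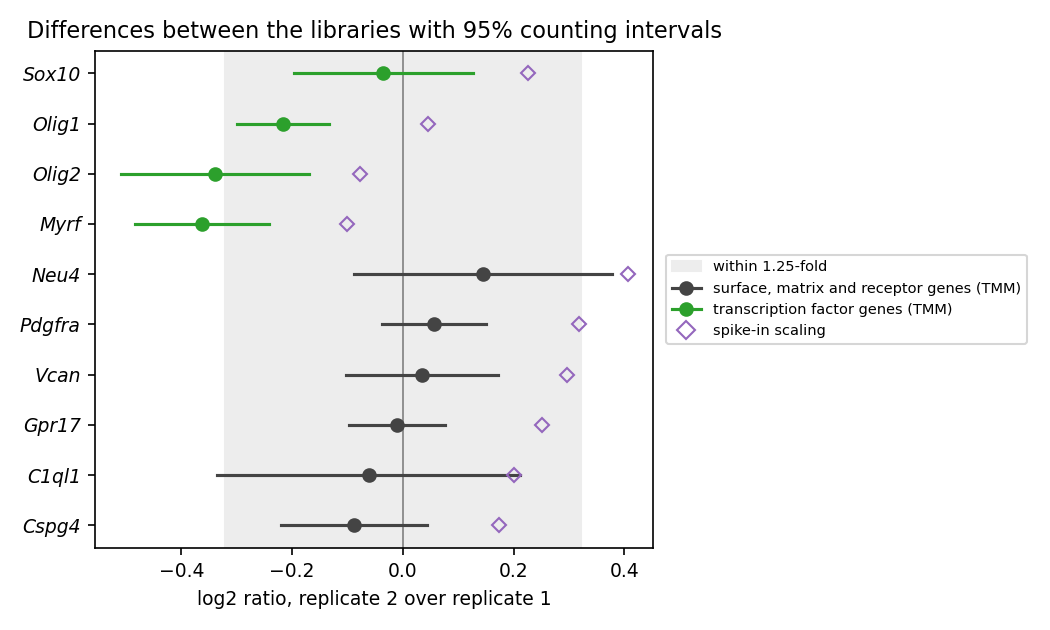
Log2 ratio of replicate 2 over replicate 1 for the 10 genes. Filled points are TMM-scaled counts with 95% counting intervals. Grey is for surface, matrix and receptor genes, with Neu4 placed among them, and green for transcription factor genes. Open diamonds are spike-in scaling and the shaded band is within the size mark (0.32). Olig2 and Myrf lie beyond the band at -0.34 and -0.36, and every diamond lies 0.26 to the right of its point.

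Genes of mature oligodendrocytes were lower in replicate 2 as well. They summed to 1872 and 1458 TPM, with Mbp at 657.8 and 492.5 TPM and Mobp at 182.4 and 127.9 TPM. Of 19 compared 18 were lower and 10 were lower past the size mark, with a median log2 ratio of -0.33 and of -0.07 under spike-in scaling. The exception was Apod, at 0.05. Fibroblasts express Apod too, and their part in its ratio was not tested.

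The other precursor genes had a median log2 ratio of -0.01, with 9 of 16 lower and 0 past the size mark. The committed and newly formed list had -0.05, with 10 of 14 lower, 1 (Enpp6) lower and 1 (Cnksr3) higher past the size mark. For Enpp6 this holds for the counts (251 and 188) only, since its deposited TPM was 2.68 in either library. Cnksr3 had 164 and 203 counts and 2.11 and 2.75 TPM. Whether the lists differ from each other was not tested. Astrocyte, microglia and endothelial markers had medians of -0.02, -0.03 and 0.05.

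In the same library the fibroblast and meningeal markers were higher, 8 of 8 compared, with a median of 0.62. Igf2, at 24.7 and 62.5 TPM, passed 2-fold. The choroid plexus markers were higher in 6 of 6 compared, all past 2-fold, with a median of 4.57, and Ttr had 533 and 30135 counts. Pdgfra and Vcan, which meningeal fibroblasts share, had ratios of 0.06 and 0.03. The part of these markers' tissues in any of the ratios was not tested.

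**Figure D5:**
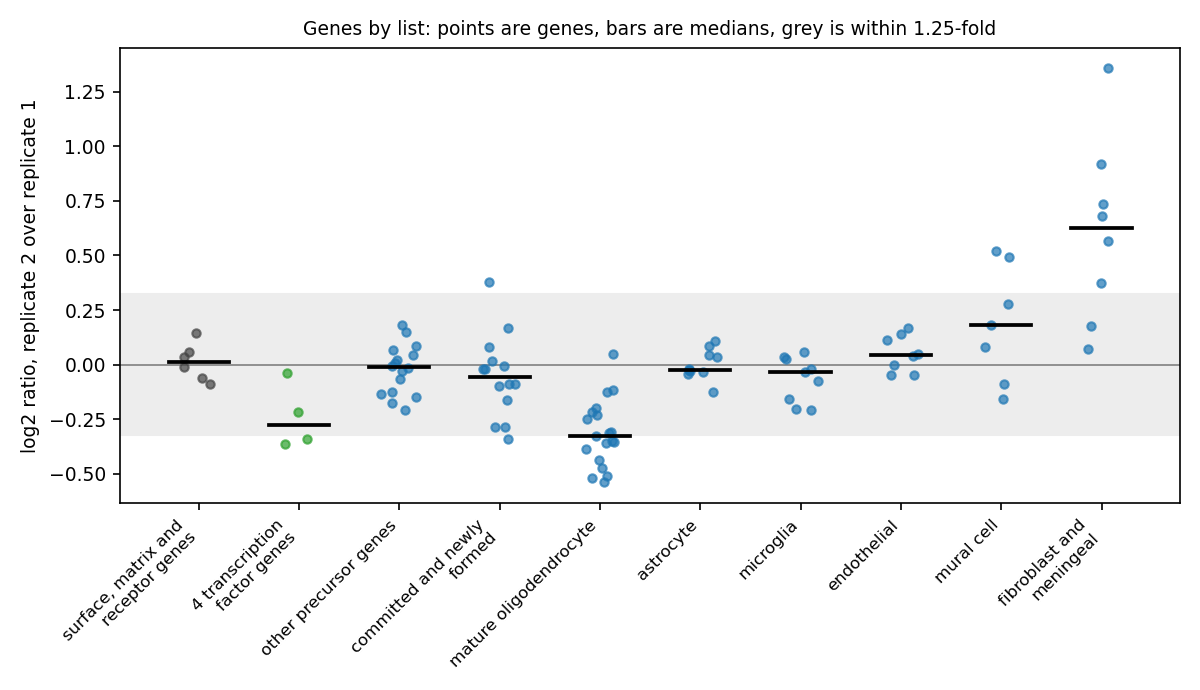
Log2 ratio of replicate 2 over replicate 1 for the genes compared in 10 lists. Points are genes, black bars are list medians and the grey band is within the size mark (0.32). Olig1, Olig2 and Myrf lie below Sox10 (-0.04) among the 4 transcription factor genes, the mature oligodendrocyte genes have a median of -0.33 and the fibroblast and meningeal genes one of 0.62, and all points lie 0.26 higher under spike-in scaling.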

How the data were processed

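Total RNA from 2 hippocampus libraries was analysed from 3 deposited tables each, on mm10 with annotation M21, per the README files deposited with them. The gene table and the first transcript table hold the authors' expected counts and TPM, and the latter the percent of a gene's TPM per transcript and bounds on TPM, per the file headers. Estimated counts and TPM of the second quantification are the authors', per the file headers of the other transcript table. Column names are those RSEM and kallisto write, but the sources used here name no software, version, use of strand or level of the bounds. Values are not split by parental allele.

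All 55536 gene identifiers matched GENCODE M21. The 96 spike-in entries and 26249 others without a gene name (numbered entries and a phage genome, 4 and 5 counts, 1.23e-05% and 1.62e-05%) did not enter library sizes. Expected counts were rounded and scaled by TMM in edgeR 4.0.16 (R 4.3.3), and log2 ratios used a prior count of 0.5. Counting intervals are exact Clopper-Pearson intervals at 95% and cover counting error only. The dispersion came from the 18246 genes whose counts averaged at least 10. With 1 library a side no test or p-value was possible, and the rules of size were a log2 ratio past 0.32 (the size mark) and 2-fold. Genes were compared where counts averaged at least 100. The scaling was tested on simulated data. The genes and lists were chosen with earlier results of these data known. The text names all 10 genes, any partner or PDGF gene and, of other lists, the 3 highest and those past 2-fold, unless said otherwise. Enpp6, Cnksr3, Apod, Frzb, Pmp2 and Npvf were named after their values were seen, and some list genes are not reported here. Alternatives were DESeq2 1.42.0 size factors, total counts, spike-in totals, deposited TPM, the second quantification, other minimums and prior counts, and each library alone. The remaining steps ran in Python 3.11.15 (scipy 1.17.1, numpy 2.4.6, pandas 2.3.3).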

Additional observations from a re-analysis of the deposited data

How the results depend on the processing

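With 2 genes past the size mark (log2 ratio 0.32) in the values reported, 1 passed under total counts (Myrf), under spike-in totals (Neu4, higher), in the deposited TPM (Olig2) and in the second quantification (Myrf), and 0 passed at 2-fold. DESeq2 size factors and no minimum on the mean count left the count at 2. The number lower in replicate 2 was 7, and 2 under spike-in totals, 6 under total counts and 7 under the other scalings tried. The median log2 ratio was -0.05, and 0.21 under spike-in totals. Each gene's log2 ratio had 7 alternatives, and of these 70 values 60 stayed inside the gene's 95% counting interval, the others being 9 under spike-in totals and Vcan in the deposited TPM. Mean TPM moved by more than the SD between libraries for all 10 genes in the second quantification. All 10 genes were detected in either library alone, and 9 at a minimum of 5 TPM. The same leading transcript was found for 5 of 6 genes, and for 4 without replicate 2. The cause of these shifts was not tested. Neu4 and C1ql1, with 214 to 314 counts, have the widest counting intervals. No paired analysis was possible because both libraries belong to 1 group.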
